A study of Rattus norvegicus with 4 samples.

Results

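Collagens, laminins and nidogens, the chains that build fibrillar matrix and basement membranes, were followed in pancreatic islets of growth-restricted and control rat pups. Members were all non-control probes on the array whose gene name was a collagen chain (Col followed by its type and chain numbers), a laminin chain (Lama, Lamb or Lamc) or a nidogen (Nid1 or Nid2). This gave 64 of 30367 probes, for 45 of 19279 gene names. Of these, 52 probes of 40 genes were bright enough to be tested. Lama1, Lamc3, Col8a2, Col13a1 and Col23a1 had no probe that passed. The classes compared were the fibrillar collagens (10 genes, all 10 tested) and the basement membrane chains (14 genes, 12 tested: 5 chains of type IV collagen, 5 laminin chains and 2 nidogens).

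Intrauterine growth restriction (IUGR) was brought about in Sprague Dawley rats by tying off both uterine arteries of the dam at embryonic day 18, and sham surgery gave the controls, with 4 samples in each group. Pups were born spontaneously, and islets were isolated at postnatal day 14. Total RNA was amplified, labelled and hybridised in pairs to 4 two-colour arrays on 1 slide, with IUGR in Cy5 on arrays 1 and 2 and in Cy3 on arrays 3 and 4. Arrays 1 to 4 held IUGR replicates 2, 1, 4 and 3 with control replicates 1, 2, 3 and 4. The ligation limits blood flow to the whole litter late in gestation, and serves as a model of placental insufficiency rather than of a change in the islet alone. The design text calls the replicates biological, but the labels do not give litters, sex or the number of animals behind a sample. The p-values therefore measure the spread between these samples only.

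Fibrillar collagens are secreted as trimers of repeating Gly-X-Y triplets and assemble, once their propeptides are cut off, into the fibrils of interstitial matrix. Type IV collagen keeps its end domains and joins into a sheet, which laminin trimers cover and nidogens link, and this sheet is the basement membrane. In rodent islets, endocrine cells do not lay down most of their own basement membrane but rest on that of the dense islet capillaries, while the fibrillar collagens lie in the capsule and along larger vessels.

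The probes of these families are 60 bases long and sample related stretches of different chains, so the sequences that bear on the comparisons are shown first, as the array files give them, 5′ to 3′. Over the 1995 pairs of probes for different genes, the best match had a median identity of 39.2%, and 5 pairs reached 60%.

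The probes of Col4a5 and Col4a3 overlap over 47 bases of the homologous end of the type IV chains, with 33 identical (70.2%, capitals; coordinates are those of the rat assembly rn4). They are shown because their ratios lay on opposite sides of 0.
Col4a5: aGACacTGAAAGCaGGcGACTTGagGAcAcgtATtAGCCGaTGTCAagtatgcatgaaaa
Col4a3: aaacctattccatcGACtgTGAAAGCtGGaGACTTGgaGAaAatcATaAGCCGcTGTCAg
They lie at chrX:36919794-36919853 (minus strand) and chr9:82036908-82036967 (plus strand) of rn4. A probe in the triple helix of Col4a1, at chr16:83146135-83146194 (plus strand), was the only member probe with a GGN codon for glycine opening each Gly-X-Y triplet from end to end. Its 6 GGN codons are in capitals.
Col4a1: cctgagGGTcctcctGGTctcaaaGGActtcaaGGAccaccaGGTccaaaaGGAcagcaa
The probe of its partner chain Col4a2 lies at chr16:82900301-82900360 (minus strand). The dimmer Lamc1 probe spans chr13:68251375-68252423 (minus strand), more than its own length, so it crosses an intron of the genome. Both are printed whole, with no capitals, because their array ratios are compared below.
Col4a2: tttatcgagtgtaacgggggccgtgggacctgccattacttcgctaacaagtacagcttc
Lamc1: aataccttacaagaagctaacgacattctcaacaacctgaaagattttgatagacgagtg

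The type IV genes sit in head-to-head pairs in the RefSeq table of assembly GRCr8. The start sites of Col4a1 and Col4a2 are 77 bases apart, those of Col4a3 and Col4a4 413 bases, and those of Col4a5 and Col4a6 1415 bases. Between the first pair lie only these 76 bases, chr16:84885521-84885596, read on the plus strand towards Col4a1. They are shown because both genes start from them.
Col4a1/Col4a2: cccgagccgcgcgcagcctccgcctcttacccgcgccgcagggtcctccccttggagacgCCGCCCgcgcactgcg
On either strand, the letters GGGCGG occurred 1 time (capitals, read as CCGCCC here), and CCAAT and TATAAA did not occur. Over 33469 promoter windows of 300 bases in the same table, 33.1% held GGGCGG, 37.5% held CCAAT and 14.2% held TATAAA on either strand.

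No collagen, laminin or nidogen passed the test. Limma called 0 of the 52 member probes at an adjusted p under 0.05, and 0 of all 22967 probes tested (0%), with a smallest adjusted p of 0.34. The values below therefore describe these 4 arrays. At an unadjusted p under 0.05, limma had 8 of 40 member genes lower in IUGR, against 6.51% of all tested genes, and 5 of 40 higher, against 6.99%. Of the member genes 21 had a mean ratio above 0 (52.9% of all tested genes did) and 19 below (47.1%). The median log2 ratio of IUGR over control was 0.01 over the member genes and 0.01 over all tested genes. In bulk RNA, fewer cells of a type and less RNA per cell cannot be told apart.

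The arrays differed in ways that touch every ratio. Before normalization, the log2 ratio of median IUGR over median control signal was 1.68 on array 1 and -1.58, -2.42 and -1.55 on arrays 2, 3 and 4. Across probes, the normalized ratios of arrays 2, 3 and 4 correlated at r from 0.37 to 0.64, and those of array 1 with the others at -0.30 to 0.12. Between 61.8% and 74% of probes were well above background in the IUGR channels, and between 67.3% and 77.2% in the control channels. No spot was saturated (0 on each array). All 9 measured beta cell markers were tested, and their summed level ran from 349921 to 987729 intensity units in IUGR samples and from 365258 to 730345 in control samples. Each of the 9 had a mean ratio above 0, with medians of 0.20, 1.06, 0.44 and 0.18 on arrays 1 to 4. Ins1 and Ins2, the brightest of them, were brighter in Cy5 on every array.

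By the signs of the 4 array ratios, all but 11 of the 40 member genes had one of the patterns that follow, as shown in the plot of ratios by gene. The ratio was below 0 on all 4 arrays for 9 of 40 genes (22.5%), against 9.7% of all tested genes. Among them were Col4a4, Col4a5, Lamb3, Col11a2, Col9a2, Col22a1, Col17a1 and Col18a1. It was above 0 on all 4 arrays for 2 genes (5%), Col4a3 and Col7a1, against 11% of all tested genes. In 10 genes (25%, against 7.25%) the Cy3 channel was the brighter one on all 4 arrays, whichever group it held: Col1a2, Col5a1, Col5a2, Col4a1, Lama5, Lamb2, Col6a1, Col14a1, Col15a1 and Col20a1. In 8 genes (20%, against 16.4%) the ratio was below 0 on array 1, where the IUGR channel was the brighter, and above 0 on the other arrays: Col1a1, Col27a1, Col5a3, Col4a2, Col6a3, Col6a6, Col16a1 and Col19a1. The converse patterns had 0 of 40 genes each: brighter in Cy5 on all arrays (8.96% of all tested genes), and above 0 on array 1 with the other arrays below 0 (15.3%). The part of dye and of channel brightness in these ratios was not tested beyond the dye term of the model.

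**Figure D1:**
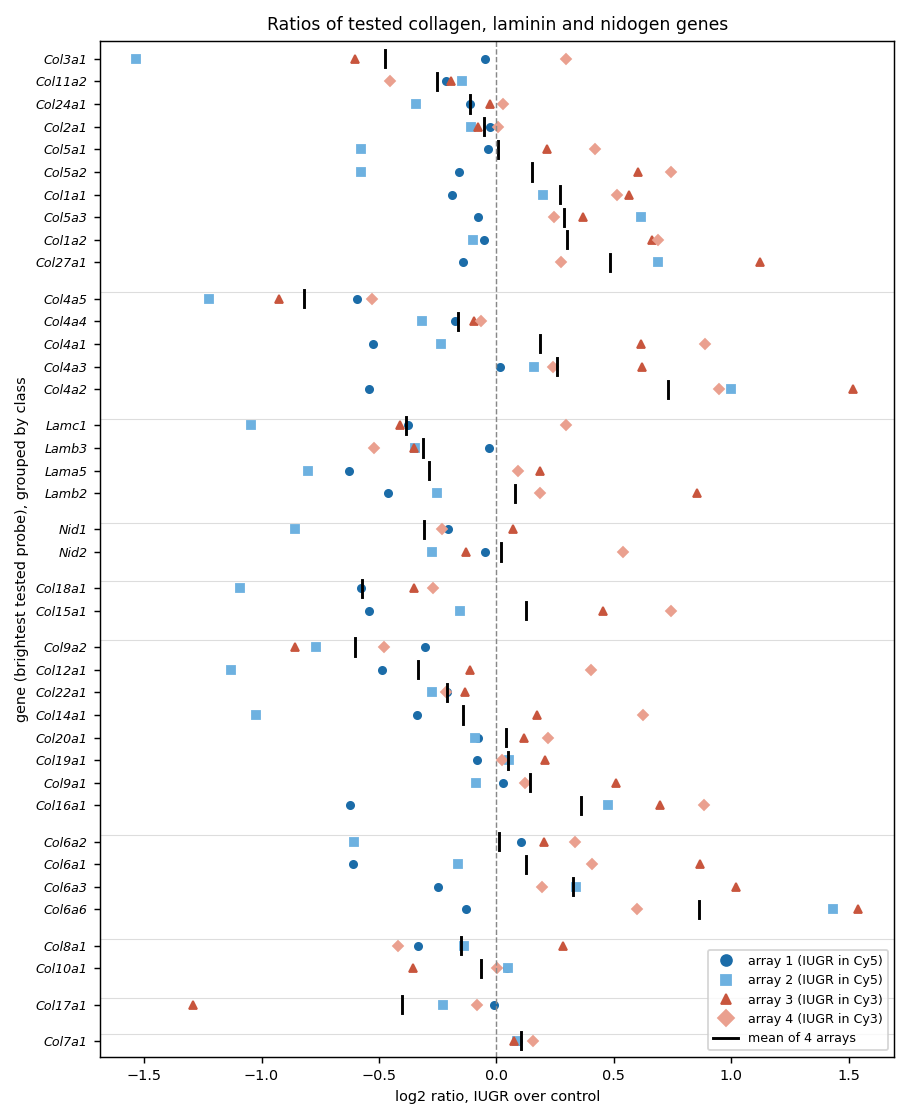
Log2 ratio of IUGR over control (x axis) for the tested genes reported here (y axis, grouped by class), with 1 point per array and a bar at the mean of 4 arrays. Col4a5, Col9a2 and Col18a1 have all points left of 0, while points of Col4a1, Col5a2 and Col15a1 are left of 0 where IUGR was in Cy5 and right of 0 where it was in Cy3.

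Among the fibrillar collagens, 6 of 10 genes had a mean ratio above 0 and 4 below, and the gene means ran from -0.47 (Col3a1) to 0.49 (Col27a1). Type I collagen, made of 2 chains encoded by Col1a1 and Col1a2, is the main fibril protein of interstitial matrix. Levels are normalized log2 intensities and are given for arrays 1 to 4. The brightest Col1a1 probe had 15.27, 14.51, 15.32 and 15.23 in IUGR samples, against 15.46, 14.31, 14.75 and 14.72 in control samples. The groups overlapped, and IUGR was the higher on arrays 2, 3 and 4. Its mean log2 ratio was 0.27 ± 0.10 (SE moderated by limma after the dye term, n = 4 arrays, adjusted p = 0.34). Col1a2 had 16.00, 15.17, 16.15 and 16.16 in IUGR samples, against 16.05, 15.27, 15.49 and 15.47 in control samples, a ratio of 0.30 ± 0.07 (limma adjusted p = 0.34). For Col1a2 the groups overlapped too, with IUGR the higher only on the 2 arrays where it was in Cy3. Both ratios turned below 0, to -0.11 for Col1a1 and -0.10 for Col1a2, when arrays were median-centred in place of loess.

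Col3a1, the homotrimeric partner of type I collagen in compliant tissue, had a mean ratio below 0. It had 15.53, 14.10, 15.29 and 15.78 in IUGR samples, against 15.58, 15.63, 15.90 and 15.49 in control samples, a ratio of -0.47 ± 0.29 (limma adjusted p = 0.40). The low IUGR level on array 2 set most of this: without array 2 the ratio was -0.10, and without array 1 it was -0.84. Type V collagen sits inside type I fibrils and sets their diameter. Col5a1 had 10.79, 9.71, 10.69 and 10.71 in IUGR samples, against 10.82, 10.29, 10.48 and 10.29 in control samples. Its ratio was 0.01 ± 0.12 (limma adjusted p = 0.98), or -0.32 under median centring, and the groups overlapped. The brighter Col5a2 probe had 12.71, 11.61, 12.78 and 12.86 in IUGR samples, against 12.87, 12.19, 12.18 and 12.11 in control samples, a ratio of 0.15 ± 0.10 (limma adjusted p = 0.43) that was -0.19 under median centring.

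The array 2 IUGR sample was thus the lowest of its group for each of Col1a1, Col1a2, Col3a1, Col5a1 and Col5a2. For Col1a1 and Col1a2, but not the other genes, the array 2 control sample was also the lowest of its group. Among the minor fibrillar chains, Col11a2, a cartilage collagen chain, had ratios of -0.22, -0.15, -0.19 and -0.45 on arrays 1 to 4 (mean -0.25 ± 0.09, limma adjusted p = 0.34). It was the only fibrillar gene below 0 on every array. Col27a1 had -0.14, 0.69, 1.12 and 0.27 (mean 0.49 ± 0.21), and Col5a3 had -0.08, 0.62, 0.37 and 0.24 (mean 0.29 ± 0.14), both above 0 on arrays 2 to 4 only. Without array 2 the Col5a3 ratio was 0.11 and that of Col27a1 0.28, and without array 3 that of Col27a1 was 0.27. Median centring gave Col5a3 a ratio of -0.06. Col2a1, the main collagen of cartilage, and Col24a1 were dim, well above background in 3 of 4 IUGR and 4 of 4 control channels, with mean ratios of -0.05 and -0.11, the Col24a1 ratio being 0.34 under median centring.

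**Figure D2:**
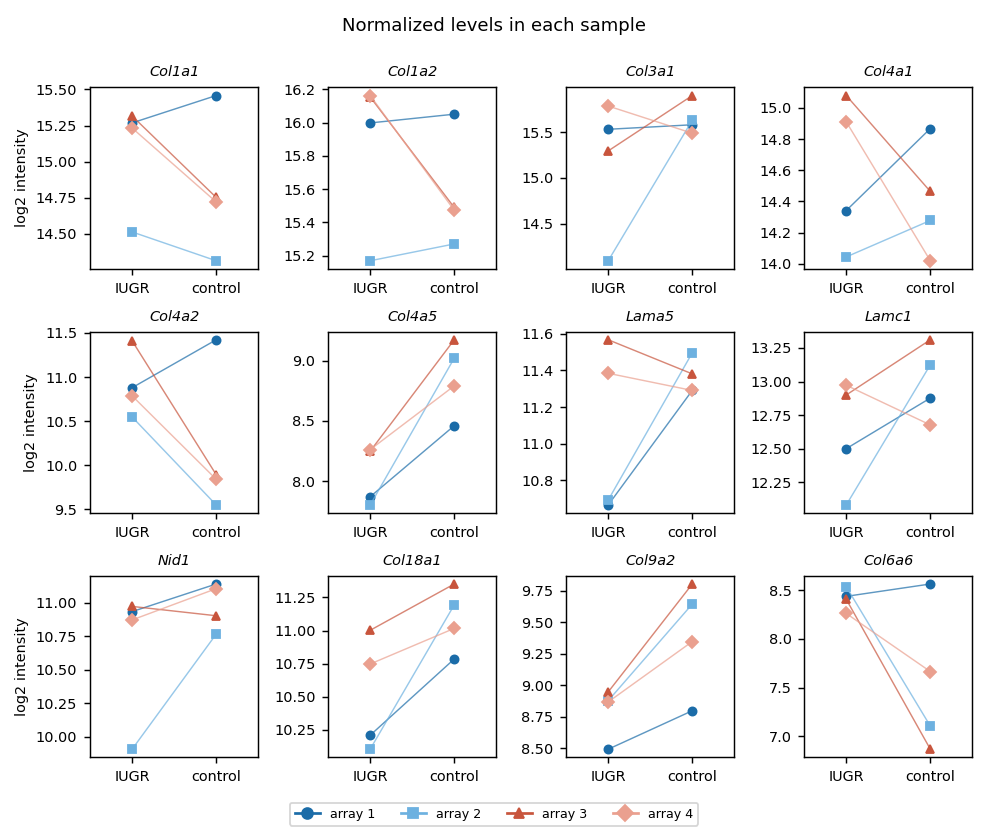
Normalized log2 intensity (y axis, scaled per gene) of 12 genes in the IUGR and control sample of each array (x axis), with a line joining the samples hybridised together. For Col4a5 the 4 IUGR points lie below the 4 control points; for the other 11 genes the groups overlap.

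Within type IV collagen the chains differed in the sign of their ratios. Col4a5, a chain of the specialised α3α4α5 and α5α6 networks, had the smallest p of all member genes. It had 7.87, 7.80, 8.25 and 8.26 in IUGR samples, against 8.46, 9.02, 9.18 and 8.79 in control samples. Every IUGR level lay below every control level, which 1 of 40 member genes showed and 1.62% of all tested genes. The converse, every IUGR level above every control level, was seen in 0 of 40 members and 1.37% of all tested genes. The ratio was -0.82 ± 0.14, a fold of 0.567 (limma unadjusted p = 0.00261, adjusted p = 0.34, n = 4 arrays). It was below 0 under each of 15 other settings of the test, from -1.16 to -0.63, with adjusted p from 0.075 to 0.95. Col4a5 is on chromosome X, and pup sex is not in the labels.

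Col4a1 and Col4a2 encode the chains of the α1α1α2 trimer found in nearly all basement membranes. The brightest Col4a1 probe had 14.34, 14.04, 15.08 and 14.91 in IUGR samples, against 14.87, 14.28, 14.46 and 14.02 in control samples. IUGR was the lower on both arrays where it was in Cy5 and the higher on both where it was in Cy3, and the groups overlapped (ratio 0.19 ± 0.10, limma adjusted p = 0.36). The ratio was -0.20 under median centring. Col4a2 had 10.88, 10.55, 11.41 and 10.79 in IUGR samples, against 11.42, 9.55, 9.89 and 9.84 in control samples. IUGR was the higher on arrays 2, 3 and 4 and the lower on array 1, with a ratio of 0.73 ± 0.28 (limma adjusted p = 0.34). Without array 1 the Col4a2 ratio was 1.12, and without array 2 it was 0.34.

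The triple-helix probe of Col4a1, printed above, had ratios of -0.36, 0.85, 1.54 and 0.74 on arrays 1 to 4. Those of Col4a2 were -0.54, 1.00, 1.52 and 0.95, and those of the brightest Col4a1 probe, nearer the 3′ end, -0.53, -0.23, 0.61 and 0.89. Both genes of the pair thus had like ratios with the one Col4a1 probe and unlike ratios on arrays 2 and 3 with the other.

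The second head-to-head pair differed in sign. Col4a3, whose end was aligned with Col4a5 above, had ratios of 0.01, 0.16, 0.62 and 0.24 (mean 0.26 ± 0.10, limma adjusted p = 0.34). Col4a4 had -0.17, -0.32, -0.09 and -0.07 (mean -0.16 ± 0.08, limma adjusted p = 0.34). Both were dim: Col4a3 was well above background in 3 of 4 IUGR and 3 of 4 control channels, and Col4a4 in 3 of 4 IUGR and 4 of 4 control channels. Median centring gave Col4a4 a ratio of 0.22.

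Of the 5 laminin chains tested, 4 had a mean ratio below 0. Lama5 encodes the α5 chain of the main laminins of mature capillaries, including those of rodent islets. It had 10.67, 10.69, 11.57 and 11.38 in IUGR samples, against 11.29, 11.50, 11.38 and 11.29 in control samples. IUGR was the lower on arrays 1 and 2 and slightly the higher on arrays 3 and 4, and the groups overlapped (ratio -0.29 ± 0.08, limma adjusted p = 0.34). Lamc1, the γ1 chain shared by most laminins, had 12.50, 12.08, 12.90 and 12.97 in IUGR samples at its brightest probe, against 12.88, 13.13, 13.31 and 12.68 in control samples. That made a ratio of -0.38 ± 0.17 (limma adjusted p = 0.34), with IUGR the lower on arrays 1, 2 and 3. Without array 2 it was -0.22, and without array 3 it was -0.21. Lamb2, a β chain that pairs with the α5 chain, had 10.43, 10.06, 11.26 and 10.68 in IUGR samples, against 10.89, 10.31, 10.41 and 10.50 in control samples. Its ratio was 0.08 ± 0.14 (limma adjusted p = 0.74), or -0.26 under median centring, and it was brighter in Cy3 on every array.

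Lamb3 encodes a β chain of the laminin of epithelial anchoring sites, best known from skin. It had ratios of -0.03, -0.34, -0.35 and -0.52 (mean -0.31 ± 0.09, limma adjusted p = 0.34). The ratio was near 0 on array 1 and lower on arrays 2 to 4. Of 7 duct markers, all tested, 6 had a mean ratio below 0, with a median of -0.32. Their summed level was 8665 to 10508 intensity units in IUGR samples and 9056 to 13987 in control samples, and the part of duct cells in the Lamb3 ratio was not tested.

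Nidogens join the laminin and type IV networks. Nid1 had 10.93, 9.91, 10.97 and 10.87 in IUGR samples, against 11.14, 10.77, 10.90 and 11.10 in control samples, a ratio of -0.31 ± 0.14 (limma adjusted p = 0.34). The array 2 IUGR sample lay far below the other IUGR samples, and without array 2 the ratio was -0.14. Nid2 had 10.83, 10.21, 10.70 and 10.81 in IUGR samples at its brightest probe, against 10.88, 10.49, 10.82 and 10.27 in control samples. Its ratio was 0.02 ± 0.14 (limma adjusted p = 0.94), or -0.31 under median centring, and its groups overlapped.

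Set against each other, the basement membrane chains had the lower median ratio and the fibrillar collagens the higher, by an amount that rested on which probe stood for a gene. The median over the 12 basement membrane genes was -0.23, with 5 genes above 0 and 7 below. That over the 10 fibrillar genes was 0.08, with 6 above and 4 below, and under median centring it was -0.10, with 3 above and 7 below against 3 above and 9 below for the basement membrane genes. On arrays 1 to 4 the fibrillar median was -0.10, -0.13, 0.29 and 0.29, and the basement membrane median was -0.29, -0.33, -0.01 and 0.14. Fibrillar minus basement membrane was 0.20, 0.20, 0.30 and 0.15 on the 4 arrays, a mean of 0.21 ± 0.07 (SD, n = 4). The class medians differed between arrays 2 and 3 by more than the classes differed within any array. The difference between the medians of the gene means was 0.30. With the mean of all tested probes of a gene in place of its brightest probe, that difference was 0.02. The dimmer probe of Lamc1 had the higher ratio of its 2 probes, and those of Col1a1 and Col5a2 the lower.

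**Figure D3:**
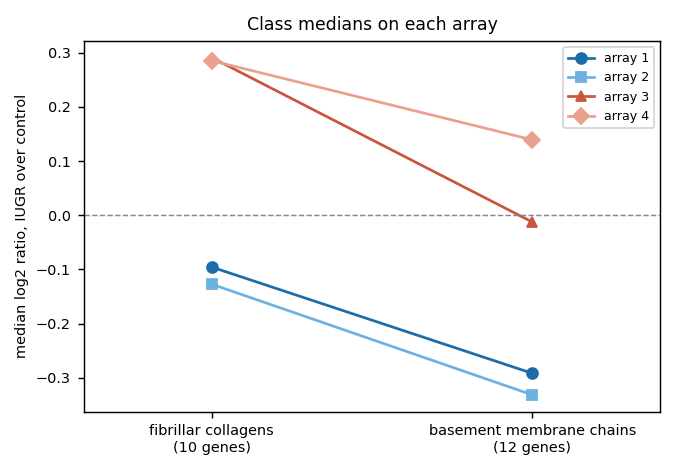
Median log2 ratio of IUGR over control (y axis) of the fibrillar collagens and the basement membrane chains (x axis), with 1 line per array. All 4 lines slope down to the right, by 0.15 to 0.30, and arrays 1 and 2 (IUGR in Cy5) lie below arrays 3 and 4.

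The probe dependence was seen directly in genes with more than 1 tested probe on 1 transcript, 9 genes with 11 pairs of probes. In 5 of the 11 pairs the probes had mean ratios of opposite sign, and the median size of the difference was 0.28 on the log2 scale. The largest difference, 1.09, was in Lamc1. Its dimmer, upstream probe had 8.58, 8.39, 9.13 and 8.56 in IUGR samples, against 8.97, 7.40, 7.43 and 8.04 in control samples, a ratio of 0.71 ± 0.30 (limma adjusted p = 0.34). The brighter, downstream probe had the ratio of -0.38 given above. On arrays 2 and 3 the probes differed by 2.03 and 2.12, and on arrays 1 and 4 by -0.01 and 0.23.

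The Col1a1 probe at the end of the coding sequence had a ratio of -0.27 ± 0.13, and the brighter probe downstream of it 0.27 ± 0.10. Col5a2 had -0.28 ± 0.21 at its upstream probe and 0.15 ± 0.10 downstream. In Col4a1, Col11a2, Col14a1 and Nid2 the upstream probe was the dimmer one and had the higher ratio: 0.69 against 0.19, 0.04 against -0.25, 0.14 against -0.14, and 0.29 against 0.02. In Col6a6 both probes were above 0, at 0.58 and 0.86, and in Col9a1 the 3 probes had 0.12 to 0.19. In 7 of the 11 pairs the dimmer probe had the higher ratio, and in 8 the upstream probe did.

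**Figure D4:**
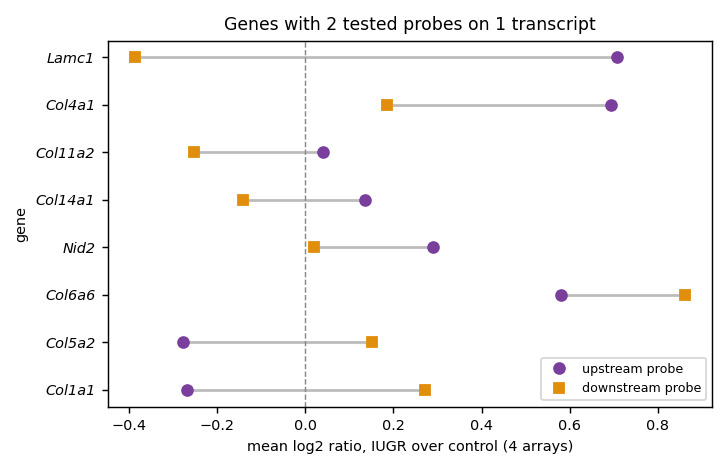
Mean log2 ratio of IUGR over control over 4 arrays (x axis) for the upstream and downstream probe of 8 genes with 2 tested probes on 1 transcript (y axis). The longest line is that of Lamc1, from -0.38 to 0.71, and 5 lines cross 0.

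Outside both classes, the multiplexins of vascular and epithelial basement membrane zones differed from each other. Col18a1, whose C-terminal fragment is endostatin, had 10.21, 10.10, 11.00 and 10.75 in IUGR samples, against 10.78, 11.19, 11.35 and 11.02 in control samples. IUGR was the lower on each array, while the groups overlapped (ratio -0.57 ± 0.11, a fold of 0.672, limma unadjusted p = 0.00438, adjusted p = 0.34). Col15a1 had ratios of -0.54, -0.15, 0.45 and 0.74 (mean 0.12 ± 0.11, limma adjusted p = 0.52), the Cy3 channel being the brighter on every array, and -0.25 under median centring.

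FACIT collagens decorate the surface of fibrils. Of the 8 tested, 4 had a mean ratio above 0 and 4 below. Col9a2, a chain of the type IX collagen of cartilage fibrils, had 8.49, 8.88, 8.95 and 8.87 in IUGR samples, against 8.80, 9.64, 9.80 and 9.35 in control samples. IUGR was the lower on each array (ratio -0.60 ± 0.12, a fold of 0.659, limma unadjusted p = 0.00495, adjusted p = 0.34), and the groups overlapped only through the control sample of array 1. Its partner chain Col9a1 had a ratio of 0.14 ± 0.10 at its brightest probe. Col22a1, known from tissue junctions, had -0.21, -0.28, -0.13 and -0.22 (mean -0.21 ± 0.08). Col12a1 had -0.49, -1.13, -0.11 and 0.40 (mean -0.33 ± 0.15, or -0.17 without array 2 and -0.20 without array 3), and its 2 dimmer probes, on other transcript records, had 0.17 and 0.26. Col16a1 had -0.62, 0.47, 0.70 and 0.89 (mean 0.36 ± 0.20), or 0.08 without array 2 and 0.63 without array 1. The other 3 FACIT genes, Col14a1, Col19a1 and Col20a1, had mean ratios from -0.14 to 0.05.

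Type VI collagen forms beaded microfibrils around basement membranes, and its 4 tested chains had mean ratios from 0.01 to 0.86. Col6a6 had 8.44, 8.54, 8.41 and 8.26 in IUGR samples, against 8.57, 7.10, 6.87 and 7.66 in control samples. The IUGR levels lay close together, and the control level of array 1 stood above the other control levels. The ratio was 0.86 ± 0.31, a fold of 1.82 (limma unadjusted p = 0.0394, adjusted p = 0.34), and it was 1.25 without array 1 and 0.47 without array 2. Col6a3 had -0.25, 0.34, 1.02 and 0.19 (mean 0.33 ± 0.18), with 0.12 without array 3, 0.18 without array 2 and 0.53 without array 4. Col6a1 had -0.61, -0.16, 0.87 and 0.41 (mean 0.13 ± 0.13). Col6a2 had 0.10, -0.61, 0.20 and 0.34 (mean 0.01 ± 0.14). Under median centring Col6a1 and Col6a2 had ratios of -0.22 and -0.38.

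The remaining collagens were dim or flat. Col7a1, the anchoring fibril collagen, had 0.09, 0.09, 0.08 and 0.16 (mean 0.10 ± 0.07). Col8a1, a short-chain collagen of vessel walls, had -0.33, -0.14, 0.29 and -0.42 (mean -0.15 ± 0.14, or 0.02 without array 4). Col10a1, the collagen of hypertrophic cartilage, was well above background in 1 of 4 IUGR and 3 of 4 control channels, with a mean of -0.07 ± 0.09, or 0.48 under median centring. Col17a1, a transmembrane collagen of hemidesmosomes, was so in 2 of 4 IUGR and 3 of 4 control channels, with a mean of -0.40 ± 0.21, or -0.10 without array 3 and -0.70 without array 4. The Col17a1 ratio was -0.11 with outlying local backgrounds left out and -1.53 from Agilent's processed signals.

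Other genes of the matrix pathway passed the test in neither direction (0 called by limma in each list). Among 22 tested genes of collagen synthesis and crosslinking, 13 had a mean ratio above 0, with a median of 0.05, against -0.18 under median centring. The crosslinking oxidases Loxl1 and Loxl2 had 0.32 ± 0.09 and 0.25 ± 0.08 and were above 0 on every array, while the prolyl hydroxylase subunit P4ha1 had -0.40 ± 0.12 and was below 0 on every array. The collagen chaperone Fkbp10 had 0.24 ± 0.08. These are all limma ratios with adjusted p = 0.34, as are those named in the next paragraph.

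Of 14 receptors for collagen and laminin, 7 had a ratio above 0 and 7 below. Itgb1, the β1 subunit of most such integrins, had -0.41 ± 0.12 and was below 0 on every array. Itga6, its laminin-binding partner, had 0.51 ± 0.21, the other laminin receptor subunit Itgb4 had -0.32 ± 0.08, and the syndecan Sdc1 had -0.40 ± 0.10. Of 14 genes of TGF-beta signalling, 11 had a ratio below 0, with a median of -0.16. The matricellular gene Ctgf had the lowest of them, with -0.39, -1.66, -0.75 and -0.49 on arrays 1 to 4 (mean -0.82 ± 0.22), and Ltbp2 had -0.47 ± 0.13, Tgfb3 -0.39 ± 0.14 and Ltbp1 -0.27 ± 0.10. Of 15 proteases and inhibitors, 10 had a ratio below 0, among them Timp1 (-0.33 ± 0.11), Mmp16 (-0.30 ± 0.11) and Mmp9 (-0.24 ± 0.09), while Ctsk had 0.28 ± 0.11. Mmp9 was dim, well above background in 1 of 4 IUGR and 3 of 4 control channels. Of 11 other basement membrane and collagen-bound genes, 6 had a ratio above 0. The proteoglycan Agrn had -0.24 ± 0.08, fibronectin (Fn1) 0.20 ± 0.07, the peroxidase that crosslinks type IV collagen (Pxdn) 0.29 ± 0.11, and Smoc2 0.19 ± 0.09. Itgb4, Ltbp2, Agrn and Fn1 were brighter in Cy3 on all 4 arrays, whichever group it held (7.25% of all tested genes were). Itga6 and Pxdn were below 0 on array 1 and above 0 on the other arrays (16.4% of all tested genes).

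Markers of the cells that make these chains had the following ratios on the same arrays. All 12 endothelial markers were tested, 11 had a mean ratio above 0, and their median was -0.32, 0.26, 0.75 and 0.48 on arrays 1 to 4. Their summed level was 76040 to 108844 intensity units in IUGR samples and 63122 to 105429 in control samples, and none was at 0. The Col4a2 ratios of -0.54, 1.00, 1.52 and 0.95 had the same signs and were likewise lowest on array 1 and highest on array 3. These signs were those of 16.4% of all tested genes, and the brightest Col4a1 probe was below 0 on both arrays 1 and 2. The ratios of Col4a5 and Col18a1 stayed below 0 throughout, as did those of 9.7% of all tested genes.

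All 8 pericyte and smooth muscle markers were tested, 7 had a mean ratio below 0, and their median was -1.31, -0.85, 0.08 and -0.59 on arrays 1 to 4. Their summed level was 16274 to 37326 in IUGR samples and 32792 to 79978 in control samples, and none was at 0. The sums are of unlogged intensities, so the brightest genes weigh most. In the array 1 control sample, which had the highest sum, 1 gene of the list had a log2 level of 15.61. That gene had 13.38 to 13.89 in the other control samples. Acta2, the actin of smooth muscle, had -0.73 ± 0.11 (limma adjusted p = 0.34). The pericyte gene Rgs5 was the 1 marker of this list with a mean ratio above 0. It had -0.02, 0.43, 1.00 and 0.26 on arrays 1 to 4 (mean 0.42 ± 0.16, limma adjusted p = 0.34). Of 12 tested fibroblast and stellate cell markers, 7 had a mean ratio above 0, with array medians of 0.06, -0.14, 0.23 and 0.45. Their summed level was 35501 to 48478 in IUGR samples and 36017 to 44969 in control samples. Schwann cell markers, from cells that also make basement membrane, had 5 of 6 mean ratios below 0, and a summed level of 1939 to 3437 in IUGR samples and 3443 to 5867 in control samples. All 9 measured acinar markers had a mean ratio above 0, with array medians of 0.43, 0.06, 1.67 and -0.24 and a summed level of 550116 to 1287630 in IUGR samples and 427889 to 986625 in control samples. The part of any of these cell types in the collagen, laminin and nidogen ratios was not tested.

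**Figure D5:**
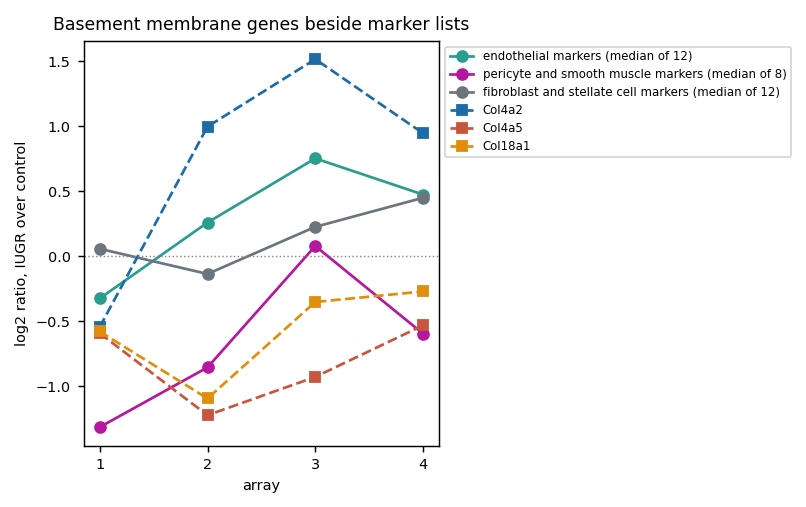
Log2 ratio of IUGR over control (y axis) on arrays 1 to 4 (x axis) for Col4a2, Col4a5 and Col18a1 (dashed) and for the medians of 3 marker lists (solid). Col4a2 and the endothelial median are below 0 on array 1 and above 0 on arrays 2 to 4, and Col4a5 and Col18a1 are below 0 on all 4. Of all tested genes, 16.4% had the first pattern and 9.7% the second.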

How the data were processed

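Per the labels, islet RNA of 4 IUGR and 4 control samples was hybridised in pairs to 4 arrays with dyes swapped on arrays 3 and 4. The deposited scanner files hold mean signals and median local backgrounds as intensity values, processed signals, a log10 ratio that was not used, and flags, extracted from design 028282 by the GE2_1010_Sep10 protocol of Feature Extraction 10.10.1.1, per the file headers. A further deposited table gives log2 ratios by spot. Its direction and normalization are not stated; set against the scanner values it was Cy5 over Cy3, with r from 0.986 to 0.998 across probes against loess ratios without background subtraction and medians of 0.008, -0.026, -0.014 and -0.029. The submitters' processing notes name limma without settings. Coordinates are rn4 from the scanner files, and RefSeq sequences and start sites are GRCr8. By accession 37 of 64 member probes matched the RefSeq table, 0 with another symbol.

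In R 4.3.3 with limma 3.58.1, intensities were background-corrected (normexp, offset 50) and loess-normalized with control spots at weight 0. The outlying local backgrounds of 263, 50, 145 and 55 spots were set to the channel median, outlier spots were left out, and spots of a probe were averaged. Per-sample levels followed Aquantile scaling. The test took probes with a value on all arrays that were well above background in at least 2 of 4 IUGR or 2 of 4 control channels. Limma fitted IUGR over control with a dye term (2 residual degrees of freedom, Benjamini-Hochberg over 22967 probes). A gene took its brightest tested probe. Brightness served to rank probes and to sum list levels, but not to compare the RNA amounts of genes. The 4 arrays limit the precision. The fit was tested on simulated data.

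Members, lists and tests were chosen with earlier results of these data known, so lists have counts and medians and no test. Levels are given for Col1a1, Col1a2, Col3a1, Col5a1, Col5a2, Col4a1, Col4a2, Lama5, Lamb2, Lamc1, Nid1 and Nid2, which the naming rule fixed. The rule added up to 4 further genes per class and list by smallest limma p, given as levels or as the 4 array ratios, and let marker lists name at most 2 genes. Lama4 and Lamb1, also in the rule, were not analysed here, so the laminin counts and the basement membrane medians do not include them. Other members were described for completeness, and 1 tested gene is counted but not reported here. Macrophage markers had 4 of 7 mean ratios above 0.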

Additional observations from a re-analysis of the deposited data

Results flagged for a closer look

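Among 37 results examined (the 4 array ratios of each named member and of both class medians), 2 had 1 array far from the other 3 by Dixon's test, which chance gives in about 1 in 20 groups. Col17a1 had a ratio of -1.29 on array 3, against -0.01, -0.23 and -0.08 on arrays 1, 2 and 4. There its IUGR level was 6.77 and its control level 8.06, the highest of the 8 samples, while the other 7 levels lay between 6.43 and 6.79. Col10a1 had a ratio of -0.36 on array 3, against 0.04, 0.05 and 0.00 on the other arrays. Both probes were near background, with Col17a1 well above it in 2 of 4 IUGR and 3 of 4 control channels and Col10a1 in 1 of 4 and 3 of 4. Each gene had a second probe, too dim to be tested, whose array 3 ratio was 0.08 for Col17a1 and 0.24 for Col10a1. The array 3 values above are thus those of 1 probe per gene, and their cause was not tested.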

How the results depend on the processing

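The limma call count over all probes was 0 under every alternative run except median centring in place of loess, which called 15 probes, 15 of them lower in IUGR and 0 of them members. At an unadjusted p under 0.05 there were 3080 probes, 1347 under median centring, 1611 with outlying backgrounds left out, and 505 to 7076 when 1 array was left out. The basement membrane median stayed below 0 under all 18 alternatives (-0.31 to -0.04). The fibrillar median (-0.10 to 0.13) turned below 0 under 3 of 17: median centring (-0.10), the mean of all probes of a gene (-0.02) and leaving out array 1 (-0.01). The fibrillar minus basement membrane difference, 0.30, kept its sign under all 18 but moved by more than its spread over arrays under 8. It was 0.39 with a normexp offset of 0, 0.40 from Agilent's processed signals, 0.19 with median centring, 0.23 with outlying backgrounds left out, 0.15 with no filter on dim probes, 0.0166 with the mean of all tested probes of a gene and 0.19 with the mean over genes, and 0.24 to 0.30 when 1 array was left out. Under median centring 12 of 40 member genes were above 0 and 28 below, against 21 and 19, while all probes moved to 49.2% above 0, against 54.0%. The cause was not tested, except that the mean over probes changes which probes count and the absent filter adds 2 dim genes to the basement membrane class.

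Deviations of same-numbered IUGR and control samples from their group means correlated at -0.06, -0.29, 0.12 and -0.17. Same-numbered samples lay on different arrays, while samples that shared an array correlated at 0.35, 0.09, 0.10 and 0.28. These values therefore cannot show whether the replicate numbers pair the samples. With the replicate block, that is paired by number and not by array, limma again called 0 probes, 2556 at an unadjusted p under 0.05, and the class medians were -0.23 (basement membrane) and 0.08 (fibrillar). Ratios of dim probes, such as Col10a1 and Col17a1, are limited by their signal over background, and moved with the handling of background. With outlying backgrounds left out, Col6a3 had 0.09 and Col4a3 0.11, against 1.19 and 0.96 from Agilent's processed signals.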
